A study of Homo sapiens with 2 samples.

Results

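Granins and the other genes of the dense-core secretory granule were followed in SBC-3 cells, an adherent line of small cell lung cancer (SCLC), after knockdown of the long noncoding RNA HOTAIR. The members were 10 genes, those whose RefSeq accession on the array maps to a granin (CHGA, CHGB, SCG2, SCG3, SCG5 and VGF), to an enzyme of prohormone processing (PCSK1, PCSK2 and CPE) or to synaptophysin (SYP), out of 19061 genes that could be named. Each member had 1 probe, printed as 2 spots. One group was SBC-3 transfected with #1 siHOTAIR, an siRNA against HOTAIR, and the other was SBC-3 transfected with the control siGFP, which targets green fluorescent protein. Each group was 1 sample of 1 cell line on 1 Agilent one-colour array, so culture, array and siRNA cannot be told apart and no test between the groups was possible. Fewer cells expressing a gene and less RNA per cell cannot be told apart in such bulk RNA.

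Granins are acidic proteins that neuroendocrine cells and neurons pack, together with peptide hormones, into dense-core granules formed at the trans-Golgi network. There the prohormone convertases cut the precursors at paired basic residues, carboxypeptidase E trims the exposed basic residues, and the granules release their content when calcium enters the cell. Chromogranin A and synaptophysin, a membrane protein of small synaptic-like vesicles, are the stains by which pathologists recognize neuroendocrine tumors such as SCLC.

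The start sites of 3 members carry the same palindrome, the cAMP response element (CRE) that proteins of the CREB family bind, and the 250 bases before each start are shown since these 3 genes were the members with both spots well above background on at least 1 array. The sequences are from RefSeq on GRCh38.p14, 5′ to 3′ on the strand of the gene, with the CRE (TGACGTCA) in capitals. They lie at chr7:101165570-101165819 on the minus strand for VGF, at chr14:92922900-92923149 on the plus strand for CHGA and at chr5:96433249-96433498 on the minus strand for PCSK1.
VGF: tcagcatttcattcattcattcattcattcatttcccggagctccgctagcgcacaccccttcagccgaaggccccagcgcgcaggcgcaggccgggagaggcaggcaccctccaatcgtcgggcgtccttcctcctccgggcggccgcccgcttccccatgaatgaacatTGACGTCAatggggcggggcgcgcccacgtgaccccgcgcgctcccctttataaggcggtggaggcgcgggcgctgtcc
CHGA: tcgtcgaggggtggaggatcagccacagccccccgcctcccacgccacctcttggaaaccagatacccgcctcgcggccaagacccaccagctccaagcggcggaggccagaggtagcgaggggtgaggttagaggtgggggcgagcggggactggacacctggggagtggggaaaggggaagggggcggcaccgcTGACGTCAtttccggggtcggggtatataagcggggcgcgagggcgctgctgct
PCSK1: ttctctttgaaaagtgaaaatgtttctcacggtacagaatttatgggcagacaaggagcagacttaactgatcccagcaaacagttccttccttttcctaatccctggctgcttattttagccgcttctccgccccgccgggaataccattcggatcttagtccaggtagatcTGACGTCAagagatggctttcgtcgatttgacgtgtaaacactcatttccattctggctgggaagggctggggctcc
The CRE lay 79 to 72 bases before the start in VGF, 77 to 70 bases before it in PCSK1 and 54 to 47 bases before it in CHGA. Promoter sequences were at hand for 8 of the members, all but CHGB and SCG2, and 3 of these 8 held the letters. Over all 35116 promoters of 300 bases in the table, 649 (1.85%) held them. Counted by gene, as the 8 members are, 614 of 27305 held them. A match is a description of the sequence and says nothing about which factor was bound in these cells.

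A further member, SCG3, carries the letters of both parts of a repressor element 1, the site of the neuronal repressor REST. They are shown because REST recruits the CoREST and LSD1 complex with which HOTAIR is known to associate. These letters lie at chr15:51681511-51681535 on the plus strand of GRCh38.p14, from 9 to 33 bases after the start. Both parts are in capitals, with 8 bases between them.
SCG3: TTCAGCACCcacagggcGGACAGCG
Each part was searched on both strands. The left part (TTCAGCACC) was found in 132 (0.376%) of the promoters and the right part (GGACAGCG) in 573 (1.63%). Both were found in 9 (0.0256%), counted at any order, strand and distance, so this is not the share that holds a full element. Whether REST binds the letters in SCG3 at their spacing was not tested. The right part alone was also found on the opposite strand in VGF, 8 to 1 bases before the start, and in PCSK2, 13 to 20 bases after it.

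Signals are given as the processed intensity of a spot. A log2 ratio is #1 siHOTAIR over siGFP after each array was set to its 75th percentile, and its SD is the measurement error of repeated spots, which does not cover differences between cultures. The scanner software called 55.5% of the spots well above background after #1 siHOTAIR and 58.3% after siGFP, and the lowest signals so called were 37.3 and 28.6. Over probes that the software placed well above background on neither array the median log2 ratio was 0.34, so that their ratios are offset toward #1 siHOTAIR. Of the 343 spots at least 4-fold higher in #1 siHOTAIR, 78.1% lay in an upper region of the array that holds 37.5% of the spots, as did 58.3% of the 357 spots at least 4-fold lower. For this reason the row of each spot, of 384, is given with its side of that region. The region was chosen with earlier results of these arrays known. HOTAIR, the target, had a signal of 108 after #1 siHOTAIR and 244 after siGFP on its single spot, a log2 ratio of -1.22 ± 0.22 (SD). The reference genes ACTB and GAPDH had log2 ratios of -0.05 (the ACTB probe with 10 spots), -0.02 (that with 2) and 0.00.

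VGF was 3.42-fold higher after #1 siHOTAIR over its 2 spots, CHGA was well above background only after #1 siHOTAIR, PCSK1 was lower after #1 siHOTAIR, and 6 members were well above background on neither array. Of the 2 members well above background on both arrays, 1 (VGF) was at least 2-fold higher and 0 were at least 2-fold lower. Over all 12026 genes well above background on both arrays, 1.4% were at least 2-fold higher and 1.48% at least 2-fold lower. CHGA and CHGB passed the filter only through the array on which they were bright, so they are described singly below, and no share or median over the members is read. Over the 13005 genes compared, those well above background on at least 1 array, 2.72% were at least 2-fold higher and 3.39% at least 2-fold lower, with a median log2 ratio of 0.02. With background correction by the normexp model, or with no correction, VGF was the 1 member past 2-fold.

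**Figure D1:**
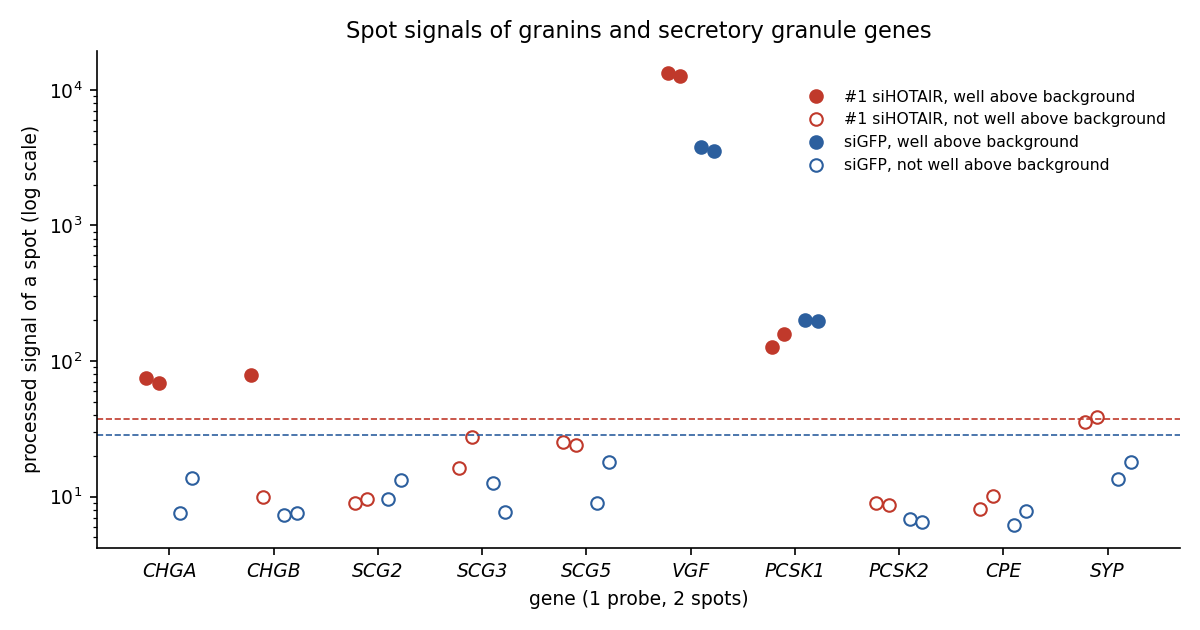
Processed signal of each spot (vertical axis, log scale) for the 10 genes, with both spots of the probe after #1 siHOTAIR (red) and after siGFP (blue). Filled points were called well above background and the dashed lines are the lowest signals so called, 37.3 and 28.6; the VGF spots lie highest in the plot and 3755 and 3537 are the control spots beside 13218 and 12560 after knockdown.

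VGF encodes a granin-like precursor of several secreted peptides, named after its induction by nerve growth factor. In row 31 its spot read 13218 after #1 siHOTAIR and 3755 after siGFP, and in row 246 the values were 12560 and 3537. Both spots were thus higher after #1 siHOTAIR, with log2 ratios of 1.77 and 1.78, and on neither array did the spots differ by more than 0.09 on the log2 scale. The averaged log2 ratio was 1.78 ± 0.05 (SD), or 3.42-fold, and with the error estimate of the scanner software the SD was 0.14. Among the 12026 genes on both arrays VGF ranked 16 from the top. Among the 3084 of these with a mean signal more than 2 log2 units above the 75th percentile, where 14 genes were at least 2-fold higher and 11 at least 2-fold lower, VGF ranked 1. The log2 ratio lay between 1.70 and 1.87 under every alternative that gave a value, and the spot in row 246, which lies outside the upper region, gave the same ratio as that in row 31, which lies inside it.

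**Figure D2:**
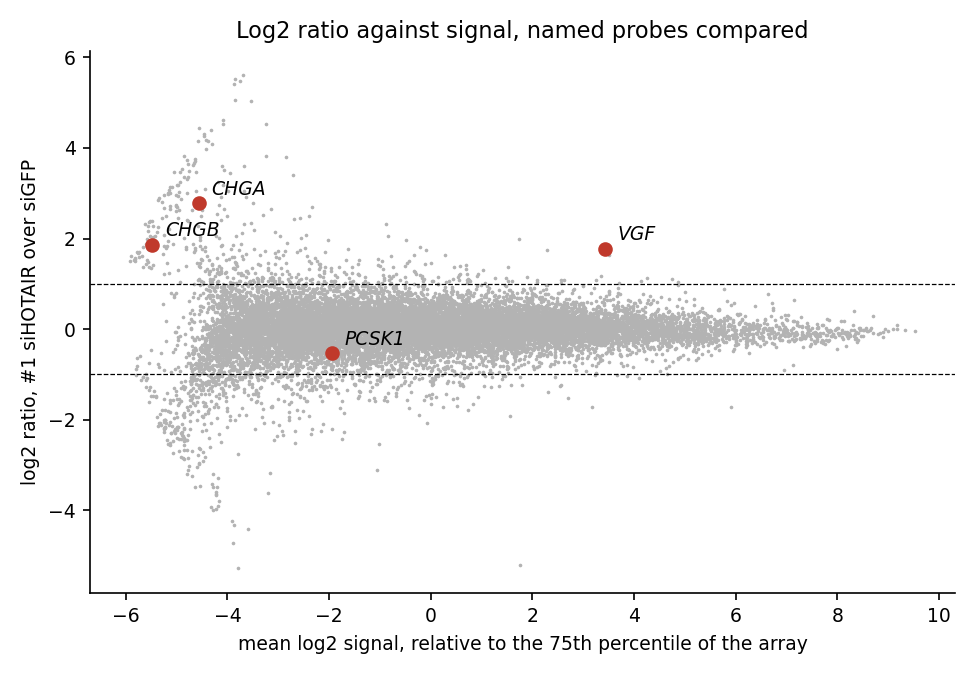
Log2 ratio of #1 siHOTAIR over siGFP (vertical axis) against the mean log2 signal relative to the 75th percentile (horizontal axis) for the named probes compared, with dashed lines at 2-fold and dim sides at their own level. VGF, at a log2 ratio of 1.78, lies apart from the probes of like signal, whereas CHGA and CHGB lie in the fan of dim probes and PCSK1, at -0.53, inside the cloud.

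CHGA encodes chromogranin A, the granin that gives rise to vasostatin and pancreastatin. Its spot in row 177 read 75.4 after #1 siHOTAIR and 7.57 after siGFP, and that in row 356 read 69.1 and 13.7. Both spots were well above background after #1 siHOTAIR and neither after siGFP, and both lay outside the upper region. With the siGFP side set at 28.6, the lowest signal called well above background there, CHGA was 2.44-fold higher after #1 siHOTAIR. The averaged signals, 72.2 and 10.2, give a log2 ratio of 2.78 ± 0.39 (SD) at their own level. The 2.44 is not a strict lower limit, since some siGFP spots not called well above background read above 28.6. The log2 ratio was 0.72 with normexp correction and 0.54 without background correction, both under 2-fold.

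CHGB encodes chromogranin B, also called secretogranin I. In row 28 its spot read 78.2 after #1 siHOTAIR and 7.33 after siGFP, whereas in row 267 the values were 9.94 and 7.52. The values in row 267 lay close to their error estimates, and the background-subtracted signals there were 4.37 and 5.43. A single spot, inside the upper region, was thus well above background, and its log2 ratio of 3.37 stood against 0.36 for the other. The pair differed by 2.98 on the log2 scale on the #1 siHOTAIR array, a gap reached by 35 of 7317 probes with 2 spots (0.478%) there and by 14 on the siGFP array. The averaged log2 ratio was 1.86 with the siGFP signal at its own level and -0.084 with it at the lowest signal well above background, so no fold is given, and without the upper region CHGB was not compared. Whether the position on the array had a part in the value was not tested.

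**Figure D3:**
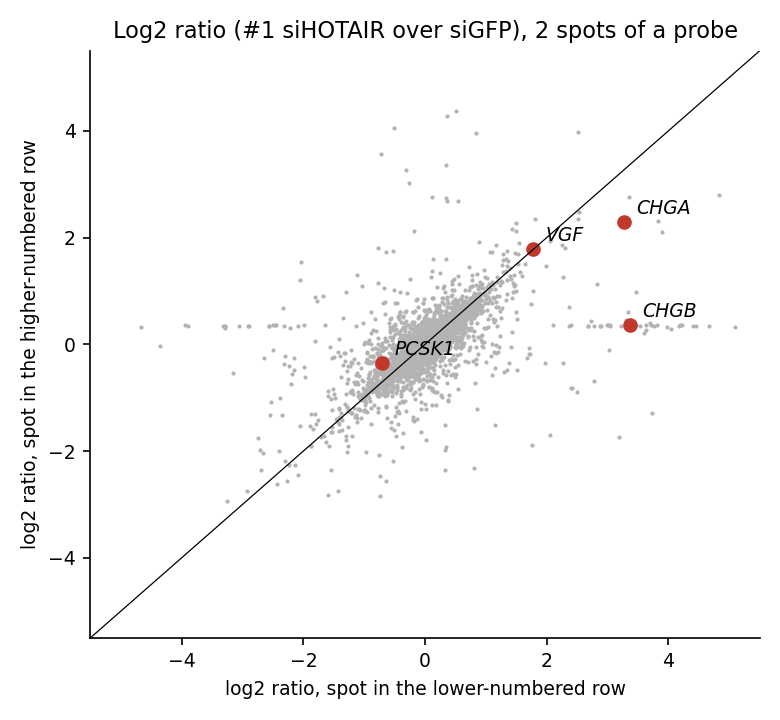
Log2 ratio (#1 siHOTAIR over siGFP) of the spot in the higher-numbered row (vertical axis) against that of the spot in the lower-numbered row (horizontal axis) for the named probes with 2 spots, with the line of equality. VGF lies on the line at 1.77 and 1.78, PCSK1 near it at -0.70 and -0.36, and CHGB far below it at 3.37 and 0.36.

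The remaining granins were well above background on neither array, so for them the values are given without a fold. SCG3, secretogranin III, which holds chromogranin A at the granule membrane, carries the letters shown above. It read 16.2 and 12.7 (#1 siHOTAIR, then siGFP) in row 169 and 27.4 and 7.63 in row 279. SCG5, the 7B2 chaperone of prohormone convertase 2, read 25.4 and 8.90 in row 238 and 24.2 and 17.8 in row 258. SCG2, secretogranin II, the precursor of secretoneurin, read 8.89 and 9.64 in row 139 and 9.56 and 13.2 in row 254. Both spots were higher after #1 siHOTAIR for SCG3 and SCG5 and lower for SCG2, all at signals that the software did not separate from background.

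Of the processing enzymes, PCSK1 was measured on both arrays and was lower after #1 siHOTAIR. It encodes prohormone convertase 1, which makes the first cuts in proopiomelanocortin and proinsulin. Its spot in row 13 read 126 after #1 siHOTAIR and 200 after siGFP, and that in row 201 read 158 and 196. Both spots were lower after #1 siHOTAIR, with log2 ratios of -0.70 and -0.36, and the averaged log2 ratio was -0.53 ± 0.16 (SD), or 30.8% lower, short of 2-fold. Of the 12026 genes on both arrays, 874 (7.27%) had a lower ratio than PCSK1. The ratio lay between -0.56 and -0.31 under the alternatives and was -0.36 without the upper region, in which row 13 lies.

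PCSK2 and CPE were at the floor of both arrays. PCSK2, prohormone convertase 2, which acts late in the granule and needs SCG5 to mature, read 8.97 after #1 siHOTAIR and 6.88 after siGFP in row 157 and 8.60 and 6.51 in row 286. CPE, carboxypeptidase E, read 8.09 and 6.15 in row 104 and 10.2 and 7.78 in row 278. The log2 ratio was 0.35 for both genes, close to the median of 0.34 over all probes on neither array. These processed signals lay close to their own error estimates. The background-subtracted signals of PCSK2 were -9.58 and -6.86 in row 157 and 1.64 and -10.2 in row 286. Those of CPE were -16.6 and 0.81 in row 104 and -18.2 and 0.53 in row 278. The ratios of 0.35 are therefore not read as differences.

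SYP, synaptophysin, was not well above background on either array, but both of its spots were more than 2-fold apart between the arrays. They read 35.4 after #1 siHOTAIR and 13.4 after siGFP in row 200, and 38.8 and 18.0 in row 278, with log2 ratios of 1.36 and 1.07. Of 2279 probes with 2 spots and well above background on neither array, 0.702% (16) had both spots at least 2-fold higher, SYP among them. That share is not a comparison at like signal. Spots not well above background had a median signal of 9.49 after #1 siHOTAIR, and probes on neither array had a median log2 ratio of 0.34. Both #1 siHOTAIR spots were close to 37.3, the lowest signal called well above background on that array.

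In all, 7 of the 20 member spots were well above background after #1 siHOTAIR and 4 after siGFP. Over all spots that are not controls the shares were 55.5% and 58.3%. A log2 ratio above 0 was found at 16 of the 20. Probes on neither array had a median log2 ratio of 0.34 and a lower quartile of 0.05. No direction is therefore read from the 16. None, that is 0 of the 20, was marked as an outlier on either array.

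**Figure D4:**
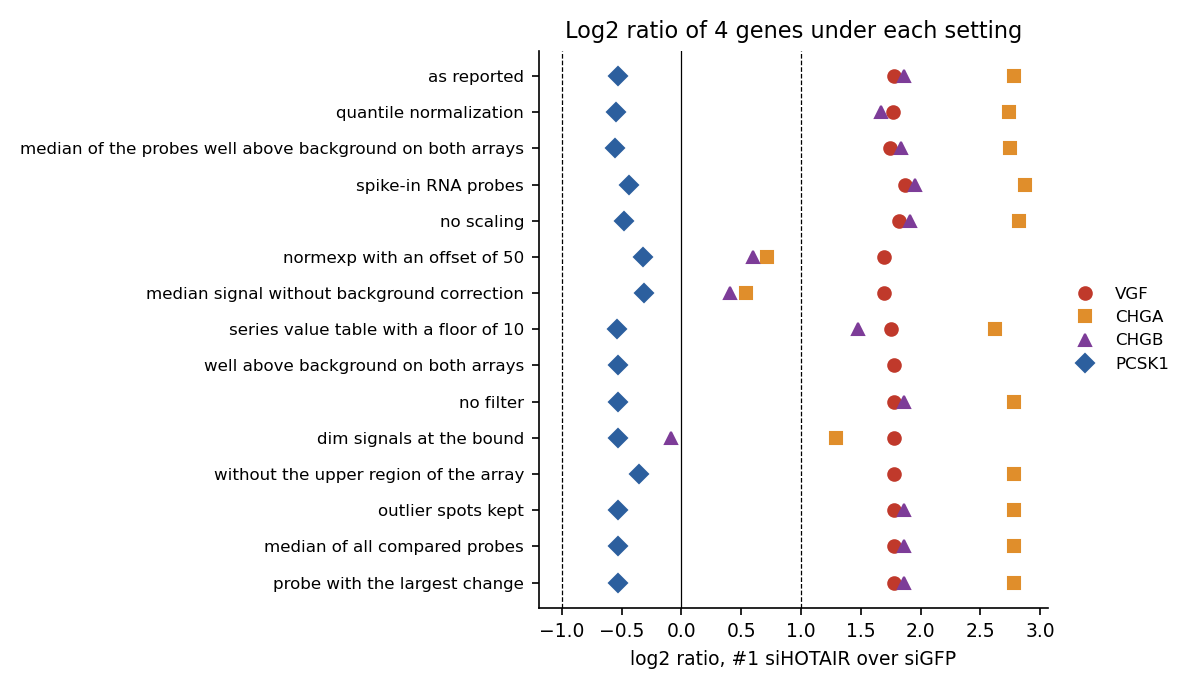
Log2 ratio of #1 siHOTAIR over siGFP (horizontal axis) of VGF, CHGA, CHGB and PCSK1 under each processing setting that gave a value (vertical axis), with a line at 0 and dashed lines at 2-fold. VGF stays between 1.70 and 1.87 and PCSK1 between -0.56 and -0.31, while CHGA falls to 0.54 and CHGB crosses 0 at -0.084 with dim signals at the bound.

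Of the 3 members with a CRE, VGF was higher, PCSK1 was lower and CHGA was well above background only after #1 siHOTAIR. Of 387 genes compared with a CRE in the promoter, 1.29% were at least 2-fold higher and 2.84% at least 2-fold lower, with a median log2 ratio of -0.01. Of all 10389 genes compared that had a promoter, 2.44% were higher and 3.15% lower, with a median of 0.02. CREB1, the founding factor of the family, had a log2 ratio of -0.06. Whether the CRE had a part in any of these ratios was not tested.

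The markers of the labelled cell type were mostly dim. Of 10 neuroendocrine small cell markers, NEUROD1 and ENO2 were well above background on both arrays, with log2 ratios of -0.85 and -0.36, and NCAM1 and CHGA after #1 siHOTAIR only, while DDC, GRP, INSM1, SYP and UCHL1 were among those on neither. NCAM1 rested on 1 of 2 spots of a probe, 67.8 in row 67 of the upper region beside 9.57 in row 166, its other 2 probes were on neither array, and no fold is given for it. INSM1, a defining transcription factor of neuroendocrine cells, was thus not well above background. Of the epithelial markers KRT8 and KRT18 were on both arrays, with log2 ratios of 0.10 and, on 1 spot, -0.44. Each had another probe that was well above background after siGFP only. That of KRT8 gave -0.82 with the dim side at its own level and -0.58 at the bound, and that of KRT18 gave -1.20 and -0.0020. KRT19 was well above background on 1 spot after #1 siHOTAIR, EPCAM on 1 spot after siGFP, and CDH1 on neither array. The spots of EPCAM read 8.59 and 81.5 (#1 siHOTAIR, then siGFP) in row 159 and 9.83 and 7.72 in row 355, an averaged log2 ratio of -1.49 with the dim side at its own level and of 0.52 at the bound, and no fold is given. Of the fibroblast markers, COL1A1 (0.96) and COL1A2 (-0.04) were on both arrays and COL3A1, DCN and LUM on neither. Of the blood markers, PTPRC (0.75) and CD68 (0.63) were on both arrays and CD3E and HBB on neither. The PTPRC ratio rested on 1 spot in row 53 of the upper region. Another PTPRC probe was well above background on 1 spot after siGFP only. Its log2 ratio was -0.83 with the dim side at its own level and 0.80 at the bound. The remaining PTPRC probes were on neither array. The part of other cell types in the member ratios was not tested.

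Most genes of the wider granule machinery lay within 2-fold. In the list of other processing enzymes, 11 of 15 genes were compared, with 0 at least 2-fold higher and a median log2 ratio of 0.02. The highest ratio was that of PAM, which amidates peptide ends in the granule, at 0.76 ± 0.08 (SD).

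Among 32 genes of the granule membrane and exocytosis, 14 were compared and 0 were past 2-fold in either direction, with a median log2 ratio of -0.01. The ratios on both arrays ran from -0.92 for RAB3C, a vesicle GTPase read from 1 spot in row 9 of the upper region, to 0.52 for SYT11, a synaptotagmin. The granule membrane proteins PTPRN and PTPRN2, the calcium sensors SYT1 and SYT7 and the monoamine transporters SLC18A1 and SLC18A2 were among the 18 on neither array.

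Genes of granule biogenesis, which act in budding from the trans-Golgi network and in maturation, were measured almost in full, with 19 of 20 compared. Of these, 1 was at least 2-fold higher and 0 lower, and the median log2 ratio was 0.04. The 1 higher gene was AP1S2, a small subunit of the AP-1 clathrin adaptor, which read 542 and 207 on one spot and 520 and 182 on the other, a log2 ratio of 1.40 ± 0.12 (SD). Its other probe gave 0.84. The lowest ratio was that of VPS52, a subunit shared by the GARP and EARP tethering complexes, at -0.62.

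Relatives of synaptophysin and other proteins of small vesicles formed a list of 18 genes, of which 12 were compared, 2 were at least 2-fold higher and 0 lower, with a median log2 ratio of 0.23. Both higher genes were well above background after #1 siHOTAIR only. They thus entered the count and the median through 1 array, and no direction is read for the list. VAMP1, a vesicle SNARE, was 2.41-fold higher with the siGFP side at the bound, and its averaged signals were 71.3 and 23.6. SYNPR, synaptoporin, the closest relative of synaptophysin, read 94.8 and 7.01 on 1 spot in row 4 of the upper region. With the siGFP side at the bound it was 3.21-fold higher. Among the 10 genes on both arrays the log2 ratios ran from -0.27 for SYPL2 to 0.37 for SYN1.

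Of 30 peptide prohormone genes, 14 were compared, 1 at least 2-fold higher and 3 lower, with a median log2 ratio of -0.35. Of the 11 on both arrays, 0 were at least 2-fold higher, 2 were at least 2-fold lower and 8 were below 0. Over all genes on both arrays 1.4% were higher and 1.48% lower, with a median of 0.03. NPY and GAL entered the counts through 1 array only, and no direction is read for the list. The lowest ratio was that of NPPB, the precursor of B-type natriuretic peptide, which read 82.8 and 353 on one spot and 75.3 and 351 on the other, a log2 ratio of -2.20 ± 0.13 (SD). Its other probe, on siGFP only, was 2.78-fold lower with the #1 siHOTAIR side at the bound. PTHLH, parathyroid hormone-like hormone, read 85.1 and 175 on one spot and 86.5 and 194 on the other, a log2 ratio of -1.15 ± 0.16 (SD). NPY, well above background after siGFP only, was 1.55-fold lower with the #1 siHOTAIR side at the bound. GAL was the 1 higher gene, with a spot of 38.2 and 5.77 in row 136 beside one of 8.60 and 6.54 in row 236, and no fold is given for it. NTS, the neurotensin precursor, had a signal of 201883 and 212119 and a log2 ratio of -0.12, and the highest ratio on both arrays was that of OXT at 0.55.

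Of 17 regulators of the neuroendocrine program, 10 were compared, all on both arrays, and 0 were past 2-fold, with a median log2 ratio of -0.15. REST had a log2 ratio of -0.10 ± 0.08 (SD), RCOR2, a CoREST protein, had the highest at 0.87 on 1 spot, and NEUROD1 had the lowest at -0.85 ± 0.13 (SD). EGR1, an immediate early factor, had a log2 ratio of -0.75 and YAP1 of -0.10. Each list is read against the 2.72% higher and 3.39% lower over all genes compared, and no list was tested.

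**Figure D5:**
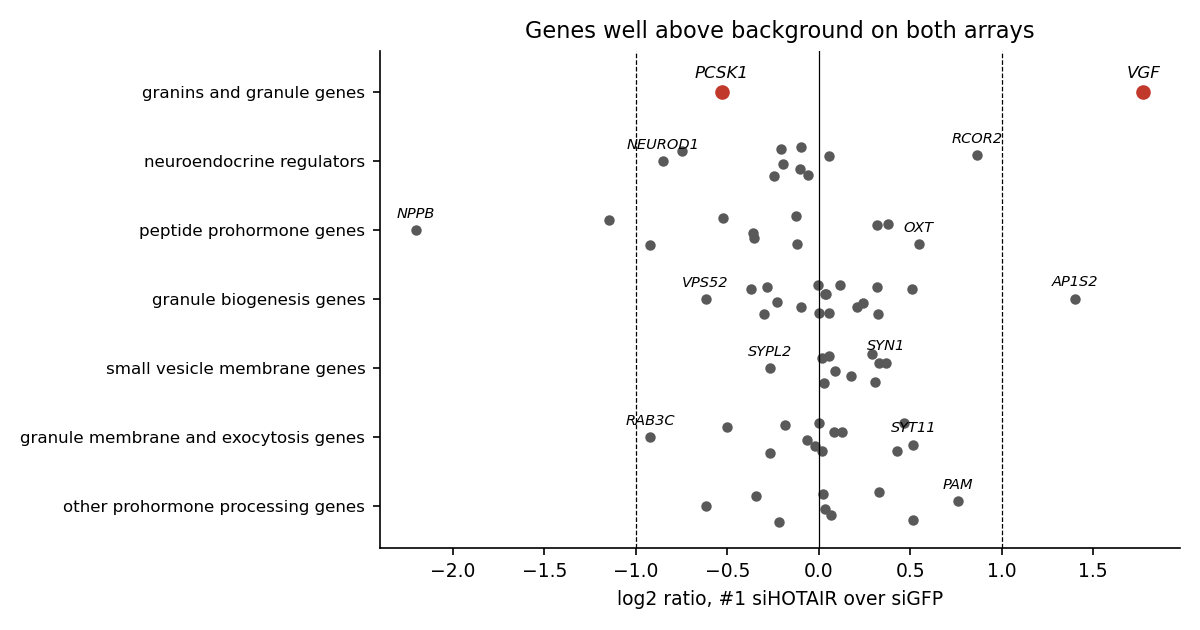
Log2 ratio of #1 siHOTAIR over siGFP (horizontal axis) of the reported genes well above background on both arrays, by list (vertical axis; points are spread vertically for legibility), with dashed lines at 2-fold. VGF at 1.78 lies to the right of every gene drawn from the 6 lists, of which AP1S2 at 1.40 comes nearest, and NPPB at -2.20 lies farthest to the left.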

How the data were processed

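SBC-3 cells given #1 siHOTAIR or siGFP, grouped by their labels, were each measured on 1 Agilent one-colour array. The authors labelled RNA with Cy3 and extracted the scans with Feature Extraction 10.10.1.1, and the deposited processed signal is an intensity after background subtraction and correction of trends across the slide, not normalized between arrays. The array design names the hg19 build. The deposited value table equals the background-subtracted signal (largest difference 0). The processed signal stays positive where the background-subtracted signal is below 0, and there lies close to its error estimate. The GeneSpring P-values and ontology of the methods were not repeated.

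Here, log2 processed signals were set against the 75th percentile of the array over spots that are not controls. Outlier spots were left out (393 and 375) and spots of a probe averaged. Comparison required the software to call 50% or more of the spots of a probe well above background on 1 array or both, and changed meant 2-fold. A gene was its brightest probe. Dim sides were bounded by the lowest signal well above background. This bound is not a strict limit, since some spots not so called read above it. Measurement SD came from probes with 9 or more spots at 6 levels of signal, and precision is limited by the number of arrays. Accessions were named through RefSeq tables of GRCh38.p14, which covered 58.5% of 42402 probes.

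The members and gene lists were chosen with earlier results of these data known. Named were all members, HOTAIR, ACTB and GAPDH. Of the lists, every gene with a probe changed 2-fold on both arrays was named. So was every gene changed by its bound on 2 or more spots, and the highest and lowest of each list. Some genes of the lists are not reported or drawn here, though the list sizes, counts and medians include them. The other genes of the lists (SYNPR, NPY, GAL, NTS, REST, EGR1, YAP1, CREB1 and those listed as dim) were named after their values were seen.

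The 16 alternatives covered scaling, background correction, filters, thresholds, array region and probe choice. Since the mean of the pixels was not in the columns used, normexp (limma 3.58.1, R 4.3.3, offset 50) and the uncorrected signal used their median. Python 3.11.15 with numpy 2.4.6 and pandas 2.3.3 was used otherwise.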

Additional observations from a re-analysis of the deposited data

How the results depend on the processing

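VGF stayed past 2-fold higher under every one of the 14 alternatives that gave it a value, and PCSK1 stayed below 0 and short of 2-fold under all 14 of its own. The number of members changed was 3 with the settings of the Results and 5 with no filter. It was 2 with dim signals at the bound and 2 without the upper region of the array. It was 1 with normexp, with no background correction or with a signal well above background required on both arrays. The members at least 2-fold higher were the same numbers. The median log2 ratio of the members compared was 1.82 with the settings of the Results, 0.66 with normexp and 0.47 with no background correction. It was 0.62 on both arrays, 0.99 with no filter and 0.60 with dim signals at the bound, where CHGB turned to -0.084. CHGA and CHGB entered the count of 3 and the median of 1.82 only through the array on which they were bright. Neither number is therefore read as a result about the members. Over all genes compared the median was 0.02, with 2.72% at least 2-fold higher and 3.39% at least 2-fold lower. In the lists, 8 genes were changed as reported, 4 with normexp, 3 with no background correction, 4 on both arrays, 13 with no filter, 18 at 1.5-fold and 2 at 3-fold, and the genes at least 2-fold higher among them went from 4 to 2 without the upper region of the array. Over all genes compared, 354 were higher and 441 lower as reported, 110 and 104 with normexp, 86 and 86 with no background correction, 168 and 178 on both arrays, 688 and 699 with no filter, 271 and 238 with dim signals at the bound, 196 and 304 without the upper region of the array, 1055 and 1128 at 1.5-fold and 167 and 164 at 3-fold. The stricter filter tests fewer genes, no filter tests more, and the thresholds move the limit itself. For the other settings the cause was not tested. The scalings moved the log2 ratio of VGF between 1.75 and 1.87. No paired analysis was possible because each condition had 1 array. Signals near background limit every statement on the 6 members detected on neither array.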
